A study of Mus musculus with 8 samples.

Results

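The genes described here are 33 mouse genes of endoplasmic reticulum (ER) stress, the ATF4 branch and ER chaperones, taken from a list of symbols among 21154 genes with a probe on the array. All 33 had a probe, which was found through its RefSeq accession, and where a gene had several the brightest was used. Expression was measured on 8 one-colour Agilent arrays, each hybridised with Cy3-labelled RNA of CD4 single-positive (CD4SP) thymocytes, which have lost CD8 and are the last CD4 stage in the thymus. The cells were sorted from mouse thymus and lysed without culture. Nr4a-TKO preTreg came from mice of a genotype labelled Nr4a-TKO and were sorted as precursors of regulatory T cells (Treg) with high CD25, high GITR and high Nr4a3. Foxp3-KO preTreg came from mice of a genotype labelled Foxp3-KO and were sorted as CD25 high and positive for a Foxp3 reporter. WT Treg were wild-type cells with Foxp3, the transcription factor of the Treg lineage, and WT Tconv were conventional T cells of wild-type mice, sorted for low CD25. Each group had 2 biological replicates. Neither the alleles, any promoter or Cre behind them nor the age of the mice is stated in the labels. With no wild-type precursors among the 4 groups, a precursor population always differed from WT Treg or WT Tconv in genotype and in gate at once.

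Cells that make many secreted or membrane proteins fold them in the ER, with chaperones such as Hspa5 (BiP) and with enzymes that form disulphide bonds. When unfolded protein builds up, the membrane sensors Ern1 (IRE1 alpha), Eif2ak3 (PERK) and Atf6 act through the transcription factors Xbp1, Atf4 and cleaved Atf6 to raise chaperones, isomerases and the machinery that sends misfolded protein out for degradation. Atf4 also answers amino acid shortage and raises genes of amino acid synthesis. In lymphocytes the pathway is best known from plasma cells, whose antibody secretion depends on Xbp1.

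Levels are log2 processed signal with the 75th percentile of the array set to 0, so a level of 1 is 2 times that percentile, and a level of 1 gene is not compared with that of another because probes differ in brightness. A difference is a log2 difference of group means ± SE from limma, n = 2 arrays a group, and a gene is called where the Benjamini-Hochberg adjusted p over the 13492 genes tested is under 0.05. A gene was tested if its probe was well above background on both arrays of at least 1 group. All 33 members passed, and 32 were above background on all 8 arrays. The exception was Chac1, above background only on both Nr4a-TKO arrays. The 6 comparisons share groups, so the values of a member in different comparisons are given side by side and are not independent of each other.

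Between 48.6% and 53.0% of the spots of an array were well above background, and replicates correlated at r = 0.976 in Foxp3-KO and at 0.990 to 0.997 in the other groups over tested genes, which are no independent replicates. The sum over 10 T cell markers, in units of the 75th percentile, was 928 to 1182 on every array. All 10, which include Cd8a and Cd8b1, were above background in every group. Bright probes weigh most in the sum, so it does not show equal T cell content. Against WT Tconv, 5 were lower and 1 higher in Nr4a-TKO, 2 and 1 in Foxp3-KO and 7 and 1 in WT Treg. Over all tested genes 27.6%, 14.8% and 20.9% were lower and 21.1%, 10.3% and 13.8% higher, in the same order. Foxp3 was at 3.61 and 3.09 in Nr4a-TKO, 1.79 and 1.58 in Foxp3-KO, 4.84 and 4.56 in WT Treg and -3.57 and -3.95 in WT Tconv. Nr4a1, Nr4a2 and Nr4a3 were above background on all 8 arrays. Nr4a1 (7.54 and 7.79) and Nr4a2 (3.53 and 3.70) peaked on both arrays with the Nr4a-TKO label, against at most 7.46 and 1.68 elsewhere, and Nr4a3 was at -0.61 and -0.29 on them, against -1.72 to 0.85 on the other 6. These levels run against the label, but the labels do not say which parts of these genes, or of Foxp3, were deleted, so the probes check no genotype. All 8 arrays were on 1 slide, row 1 holding Nr4a-TKO and WT Tconv while row 2 held Foxp3-KO and WT Treg. Slide row and group cannot be told apart in the comparisons across rows, and only Nr4a-TKO against WT Tconv and Foxp3-KO against WT Treg lie within a row. RNA of bulk samples was measured, so fewer cells of a type and less RNA per cell cannot be told apart.

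Summed markers of other cells moved with the groups. The summed signal of 10 B cell markers was 48.8 and 13.3 on the Nr4a-TKO arrays, 13.8 and 2.64 on the Foxp3-KO arrays, 4.90 and 3.87 on the WT Treg arrays and 1.85 and 1.84 on the WT Tconv arrays. The sum over 7 plasma cell markers was 33.6 and 16.5 in Nr4a-TKO, 29.6 and 11.2 in Foxp3-KO, 9.53 and 10.6 in WT Treg and 8.77 and 8.78 in WT Tconv. Replicate 1 of Nr4a-TKO and replicate 1 of Foxp3-KO were thus the arrays with the most B and plasma cell marker signal. For B cell markers Nr4a-TKO replicate 2 (13.3) was close to Foxp3-KO replicate 1 (13.8). At least 1 array was above background for 10 of 10 B cell markers in Nr4a-TKO, 8 in Foxp3-KO, 6 in WT Treg and 4 in WT Tconv, and the B cell gene Ms4a1 and the plasma cell gene Jchain were not above background on either WT Tconv array. The sum over 14 myeloid markers was 247 and 127 in Nr4a-TKO, 124 and 66.2 in Foxp3-KO, 69.0 and 53.0 in WT Treg and 47.9 and 50.7 in WT Tconv. The sum over 10 proliferation genes followed another order, at 161 and 159 in Nr4a-TKO, 122 and 128 in Foxp3-KO, 71.2 and 70.7 in WT Treg and 153 on both WT Tconv arrays. Bright probes weigh most in these sums. Myeloid Ccl8 was at 6.92 and 5.11 in Nr4a-TKO and at most -0.62 elsewhere. Myeloid Itgam ran the other way, at 4.78 and 4.82 in Nr4a-TKO and 5.10 and 5.18 in WT Tconv. The plasma cell gene Fcrl5, at 3.03 on both WT Tconv arrays, was lower on both Nr4a-TKO arrays. Between Nr4a-TKO and WT Tconv, 13 of 14 myeloid markers were called higher and 1 lower. Of 6 plasma cell markers tested, 5 were higher and 0 lower. Over all tested genes 21.1% were higher and 27.6% lower there. Among these markers Ccl8, Cd14 and Sdc1 were above background on both arrays only in Nr4a-TKO. They entered the test through the group where they were high, so their part in the counts is no support. B cells, plasma cells, macrophages and cycling cells all express members of the present list, and the part of these cells in the results below was not tested. Sizes are also given without both replicate 1 arrays of the precursor groups, a check chosen after the marker signal was seen. It leaves 1 array in each precursor group, so no calls are given for it. Of the arrays kept, Nr4a-TKO replicate 2 still held the most B cell (13.3), plasma cell (16.5) and myeloid (127) marker signal. The check therefore does not take that excess away.

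**Figure D1:**
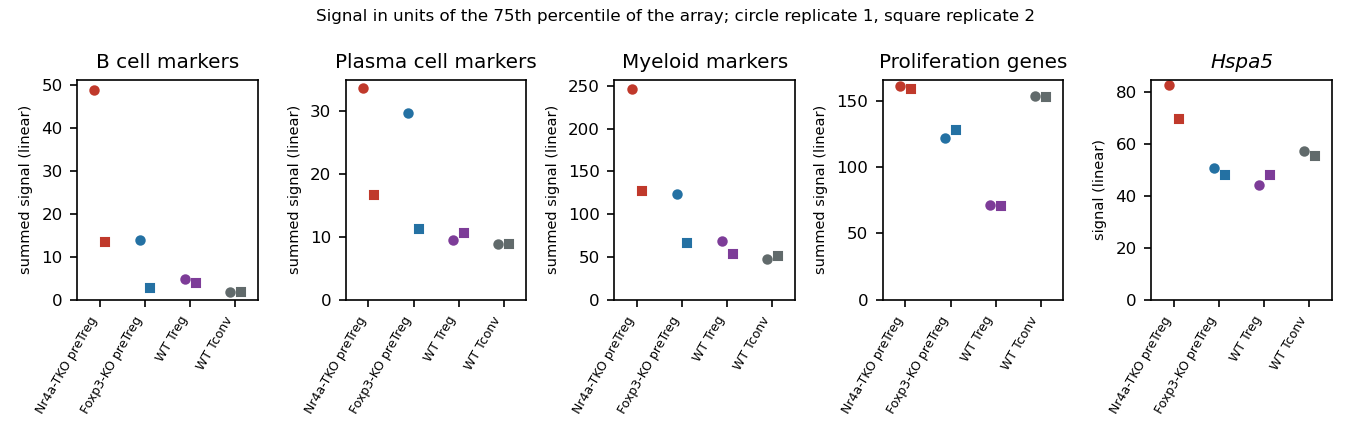
Summed signal of B cell, plasma cell, myeloid and proliferation genes, and signal of Hspa5, on each array in units of the array's 75th percentile on a linear axis; circles are replicate 1, squares replicate 2. The Nr4a-TKO and Foxp3-KO replicate 1 arrays hold the most B and plasma cell marker signal, and proliferation genes are lowest on both WT Treg arrays, at 71.2 and 70.7.

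The promoters of several members carry the DNA elements through which the pathway acts, and they are shown here because the same members make up the results below. RefSeq windows (GRCm38.p6) from 250 bases before to 50 after the start of the gene were at hand for 30 of the 33 members, all but Atf6, Hyou1 and Manf. The ER stress element ERSE, which ATF6 and XBP1 bind together with NF-Y, was searched as CCAAT, 9 bases, CCACG on both strands. It stood in 39 of 32851 windows, 0.119%, and in the windows of 8 members. The Hspa5 window, chr2:34771840-34772139 on the + strand, holds the element close to the start site, its CCAAT and CCACG in capitals.

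Hspa5 promoter: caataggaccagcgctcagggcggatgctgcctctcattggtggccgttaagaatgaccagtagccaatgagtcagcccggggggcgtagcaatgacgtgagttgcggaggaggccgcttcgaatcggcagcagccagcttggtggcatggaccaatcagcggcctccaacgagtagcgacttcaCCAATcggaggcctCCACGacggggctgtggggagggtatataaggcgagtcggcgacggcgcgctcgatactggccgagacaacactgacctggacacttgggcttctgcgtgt

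The other 7 members with the element are lined up below, each read on the strand that holds CCAAT, with 10 bases on either side. Hsp90b1 has 2 matches.

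Hsp90b1, farther (chr10:86705628-86705666, - strand): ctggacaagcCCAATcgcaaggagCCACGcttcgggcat
Hsp90b1, nearer (chr10:86705523-86705561, + strand): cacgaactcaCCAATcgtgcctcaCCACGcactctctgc
Calr (chr8:84847065-84847103, + strand): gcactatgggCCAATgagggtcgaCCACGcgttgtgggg
Canx (chr11:50325790-50325828, - strand): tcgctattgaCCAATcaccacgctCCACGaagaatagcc
Creld2 (chr15:88819510-88819548, - strand): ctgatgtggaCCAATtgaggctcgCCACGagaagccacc
Dnajc3 (chr14:118937817-118937855, + strand): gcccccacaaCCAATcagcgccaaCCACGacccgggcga
Pdia6 (chr12:17266481-17266519, + strand): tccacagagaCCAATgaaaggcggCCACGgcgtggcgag
Syvn1 (chr19:6046522-6046560, + strand): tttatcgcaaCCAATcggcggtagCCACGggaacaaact

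The variant ERSE-II, ATTGG, 1 base, CCACG, was in 12 of all windows, 0.0365%, and in those of Dnajb11 and Herpud1. The CARE element, which ATF4 binds with C/EBP partners, was searched as TGATG, 1 base, AA and was in 1304 windows, 3.97%, among them those of Asns, Chac1, Herpud1 and Trib3. The Herpud1 window, chr8:94386179-94386478 on the + strand, holds both, the CARE match on the opposite strand, with the matches in capitals.

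Herpud1 promoter: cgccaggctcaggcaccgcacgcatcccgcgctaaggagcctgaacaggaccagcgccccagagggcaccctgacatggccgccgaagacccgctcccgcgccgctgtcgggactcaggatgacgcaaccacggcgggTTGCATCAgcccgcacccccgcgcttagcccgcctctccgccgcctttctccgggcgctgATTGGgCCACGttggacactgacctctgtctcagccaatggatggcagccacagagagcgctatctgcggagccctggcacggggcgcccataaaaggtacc
Asns CARE (chr6:7693215-7693242, - strand): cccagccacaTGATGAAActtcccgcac
Chac1 CARE (chr2:119351039-119351066, - strand): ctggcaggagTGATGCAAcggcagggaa
Trib3 CARE (chr2:152344029-152344056, + strand): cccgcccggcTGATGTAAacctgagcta

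The core of the unfolded protein response element, TGACG followed by TGG, was in 222 windows, 0.676%, and in none (0) of the members' windows. A match of letters is a description of the window and not of binding in these cells.

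Across the 33 members the largest number of members called higher was in Nr4a-TKO against WT Treg. In that comparison 17 members were higher and 1 lower, where 35.0% of all tested genes were called, 18.6% higher and 16.4% lower. Against Foxp3-KO, Nr4a-TKO had 16 members higher and 1 lower, where 33.5% of tested genes were called, 17.8% higher and 15.7% lower. WT Treg had 2 members higher and 14 lower than WT Tconv, where 34.7% of tested genes were called, 13.8% higher and 20.9% lower. Foxp3-KO had 0 members higher and 10 lower than WT Tconv, where 25.1% of tested genes were called, 10.3% higher and 14.8% lower. Nr4a-TKO against WT Tconv gave 9 members higher and 9 lower, in a comparison in which 48.7% of tested genes were called, 21.1% higher and 27.6% lower, so that the members' share was near that of all genes. Under median scaling, and with no filter on dim probes, 5 members were higher there. Foxp3-KO and WT Treg differed in 1 member, Shmt2, which was lower, where 6.45% of tested genes were called, 3.33% higher and 3.12% lower. There 8 members had an unadjusted p under 0.05 in that limma fit.

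**Figure D2:**
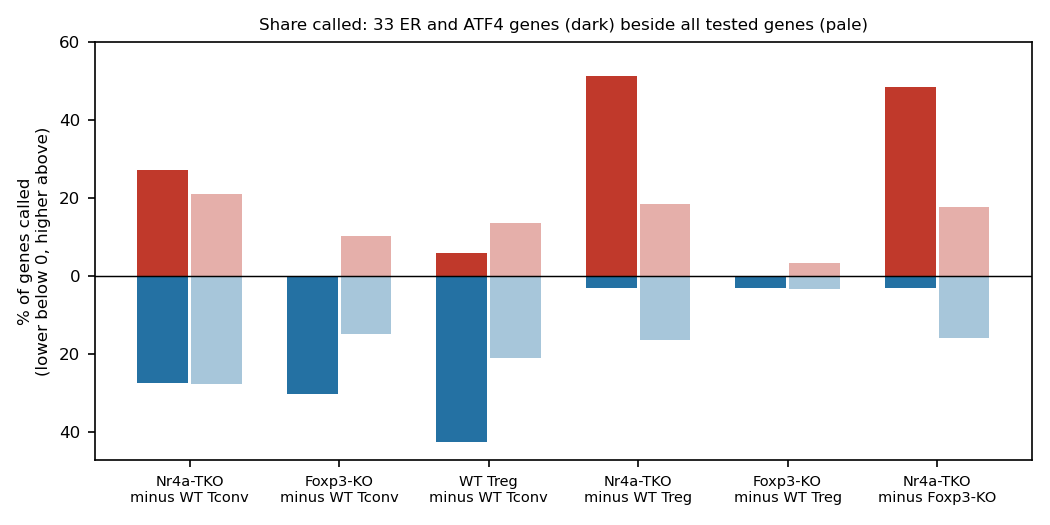
Share of the 33 members (dark bars) and of all 13492 tested genes (pale bars) called higher (above 0) or lower (below 0) in each comparison, in percent. The bars of Nr4a-TKO against WT Treg and against Foxp3-KO reach 17 and 16 of 33 members on the higher side.

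The median difference over the members was 0.46 for Nr4a-TKO minus WT Treg, against -0.01 over all tested genes, and 0.33 for Nr4a-TKO minus Foxp3-KO, against 0.01. It was -0.37 for WT Treg minus WT Tconv and -0.19 for Foxp3-KO minus WT Tconv, where all tested genes had medians of -0.08 and -0.11. Group means were highest in Nr4a-TKO for 16 members and in WT Tconv for 15, and lowest in WT Treg for 18. Among all tested genes the shares were 28.6% highest in Nr4a-TKO, 41.4% highest in WT Tconv and 22.4% lowest in WT Treg, so the members highest in WT Tconv were near the share of all genes. Both groups of slide row 1 thus held the highest mean for 31 of 33 members, and row and group cannot be told apart in that split.

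**Figure D3:**
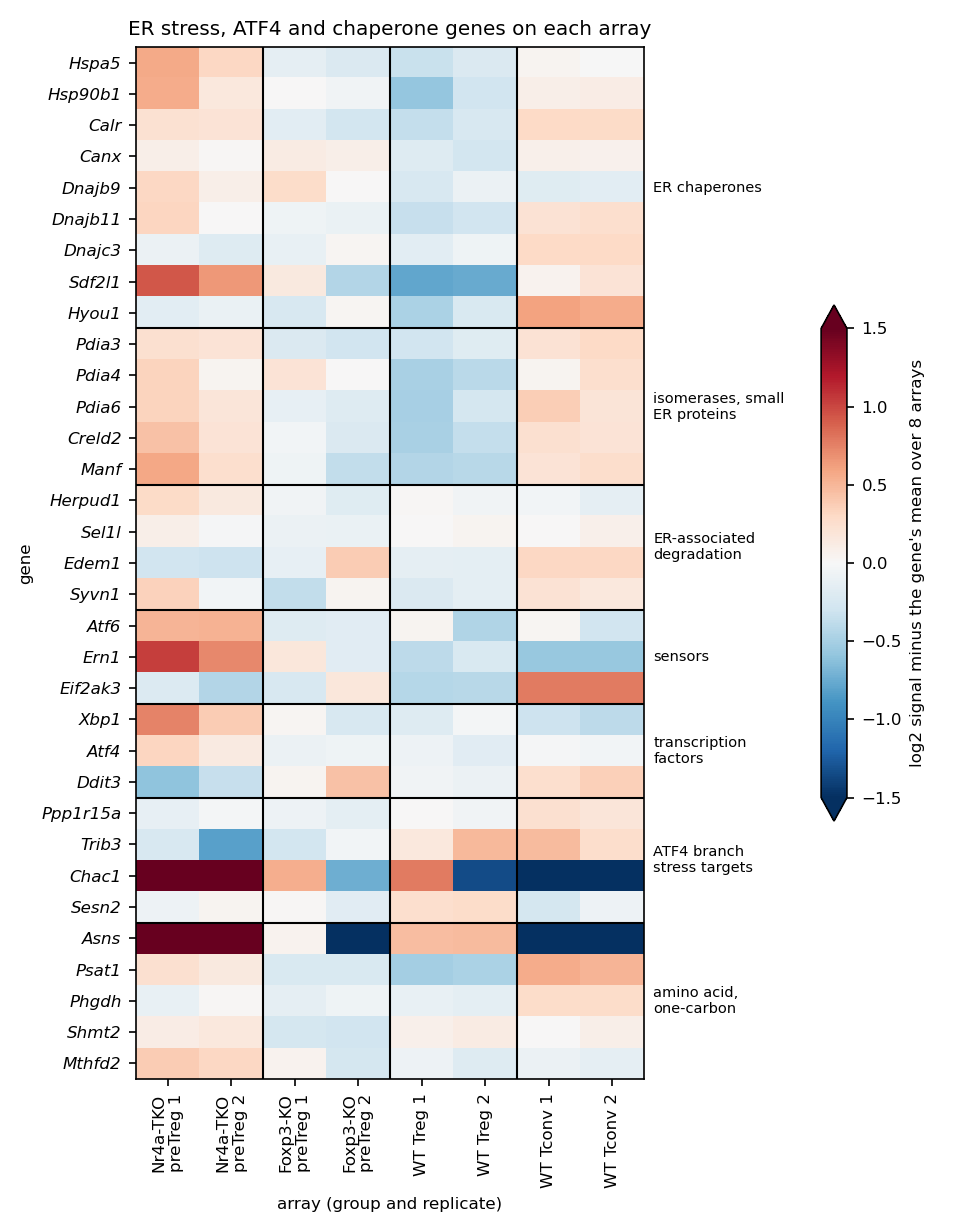
Level of each of the 33 members on each of the 8 arrays, as log2 signal minus the gene's mean over the 8 arrays, with genes grouped by role; colours end at 1.5 in either direction, which Asns and Chac1 exceed. ER chaperones and isomerases are mostly red in Nr4a-TKO and WT Tconv and blue in WT Treg. Chac1 was above background only in Nr4a-TKO.

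Of 9 ER chaperones and co-chaperones, 6 were higher in Nr4a-TKO than in WT Treg and 0 lower, and 6 were lower in WT Treg than in WT Tconv and 0 higher. Between Nr4a-TKO and WT Tconv 2 were higher and 2 lower, so the set as a whole did not move 1 way in the comparison within a slide row. Over all tested genes 18.6% were higher and 16.4% lower in the first of these comparisons and 13.8% and 20.9% in the second. In the third 44.4% of the chaperones were called, near the 48.7% of all tested genes. Without both replicate 1 arrays of the precursor groups, the 6 called differences of Nr4a-TKO from WT Treg ran from 0.25 (Canx) to 1.41 (Sdf2l1). With all arrays these were 0.29 and 1.56. Hspa5, the main chaperone of the ER lumen and the protein that holds the sensors inactive, stood at 6.37 and 6.12 in Nr4a-TKO, 5.66 and 5.59 in Foxp3-KO, 5.46 and 5.58 in WT Treg and 5.84 and 5.79 in WT Tconv. Both Nr4a-TKO arrays lay above all 6 others. Hspa5 was higher in Nr4a-TKO than in WT Treg by 0.72 ± 0.11 (1.65-fold, adjusted p = 0.00686), than in Foxp3-KO by 0.62 ± 0.11 (adjusted p = 0.0114) and than in WT Tconv by 0.43 ± 0.11 (adjusted p = 0.0224). Leaving out both replicate 1 arrays of the precursor groups gave 0.59, 0.53 and 0.30 for these differences. Under median scaling the last was 0.37 and not called (adjusted p = 0.0638 in limma). Hspa5 in WT Treg minus WT Tconv was -0.29 ± 0.11 and did not pass (adjusted p = 0.0844 in limma).

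Sdf2l1, a small partner of the Hspa5 system, had the widest range of the chaperones above background everywhere. It was at 1.42 and 1.13 in Nr4a-TKO, 0.63 and 0.04 in Foxp3-KO, -0.30 and -0.28 in WT Treg and 0.53 and 0.68 in WT Tconv. The Nr4a-TKO arrays were again above all others and the WT Treg arrays below all others, while the Foxp3-KO arrays spread across the level of WT Tconv. The difference from WT Treg was 1.56 ± 0.21 (2.95-fold, adjusted p = 0.00518), that from Foxp3-KO 0.94 ± 0.21 (adjusted p = 0.0231) and that from WT Tconv 0.67 ± 0.21 (adjusted p = 0.0450). Sdf2l1 fell by 0.89 ± 0.21 in WT Treg relative to WT Tconv (adjusted p = 0.0248). Its differences in Nr4a-TKO without both replicate 1 arrays of the precursor groups were 1.41 from WT Treg, 1.09 from Foxp3-KO and 0.52 from WT Tconv. Under median scaling the difference from WT Tconv was 0.61 and not called (adjusted p = 0.0566 in limma).

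Hsp90b1 (GRP94), which folds receptors and integrins in the ER, was at 5.44 and 5.05 in Nr4a-TKO, 4.89 and 4.83 in Foxp3-KO, 4.31 and 4.59 in WT Treg and 4.967 and 5.001 in WT Tconv. Its only called difference was Nr4a-TKO minus WT Treg, 0.79 ± 0.16 (adjusted p = 0.0165). Nr4a-TKO replicate 1 was the highest array, and without both replicate 1 arrays of the precursor groups the difference was 0.59. The call ended with only the groups compared. Calr, the calcium-binding lectin chaperone calreticulin, was at 4.32 and 4.30 in Nr4a-TKO, 3.93 and 3.82 in Foxp3-KO, 3.73 and 3.84 in WT Treg and 4.38 on both WT Tconv arrays. Here the groups formed 2 levels, with Nr4a-TKO and WT Tconv about 0.5 above the other two, in the pattern of the slide rows. Calr was higher in Nr4a-TKO than in WT Treg by 0.52 ± 0.08 (adjusted p = 0.00694) and than in Foxp3-KO by 0.43 ± 0.08 (adjusted p = 0.0124). It was lower than in WT Tconv in WT Treg (-0.59 ± 0.08, adjusted p = 0.0044) and in Foxp3-KO (-0.51 ± 0.08, adjusted p = 0.0116), and Nr4a-TKO minus WT Tconv was -0.07 ± 0.08 (adjusted p = 0.464).

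Hyou1, the large chaperone that recharges Hspa5 with nucleotide, took another pattern. It was at -2.42 and -2.37 in Nr4a-TKO, -2.51 and -2.24 in Foxp3-KO, -2.74 and -2.50 in WT Treg and -1.67 and -1.71 in WT Tconv. The WT Tconv arrays lay above all 6 others, which overlapped in part. Hyou1 fell by 0.71 ± 0.13 in Nr4a-TKO (adjusted p = 0.00781), by 0.68 ± 0.13 in Foxp3-KO (adjusted p = 0.0181) and by 0.93 ± 0.13 in WT Treg (adjusted p = 0.00493), each relative to WT Tconv. Its probe was dim. With normexp background correction the differences from WT Tconv were smaller, at -0.35 in Nr4a-TKO, -0.30 in Foxp3-KO and -0.40 in WT Treg, and that of Foxp3-KO was not called (adjusted p = 0.0709 in limma). Dnajc3 (P58IPK), an ER co-chaperone known to restrain Eif2ak3, was also lower than in WT Tconv in all 3 groups, by 0.34 to 0.44 on the log2 scale. In Foxp3-KO the Dnajc3 call ended under quantile normalization (-0.26, adjusted p = 0.067 in limma). Canx, the membrane partner of Calr, and Dnajb11, an Hspa5 co-chaperone, were each higher in Nr4a-TKO than in WT Treg and lower in WT Treg than in WT Tconv, with differences of 0.29 and 0.48 in the first comparison and -0.31 and -0.55 in the second. With the mean of its probes in place of the brightest, Dnajb11 differed by 0.00 and -0.08 and was called in neither. Its second probe was not well above background on both arrays of any group, so that mean mixes in a dim probe. Dnajb9 was called in no comparison on its brightest probe, but its second probe was called for Nr4a-TKO minus WT Treg (0.56 ± 0.16, adjusted p = 0.0416, with every probe tested on its own).

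**Figure D4:**
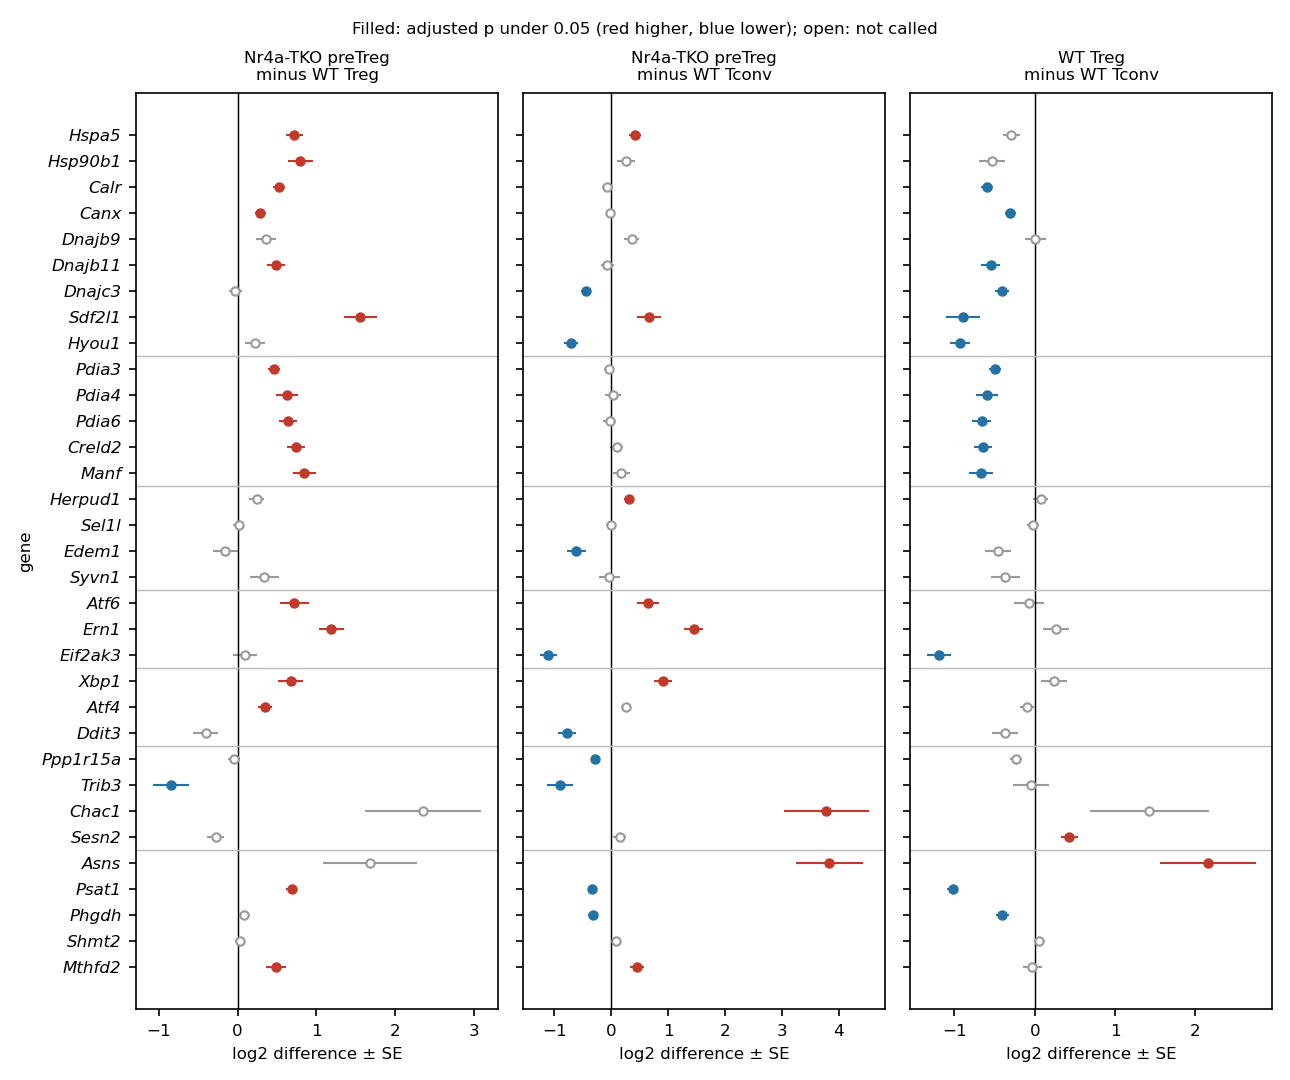
Log2 difference ± SE of each member for Nr4a-TKO minus WT Treg, Nr4a-TKO minus WT Tconv and WT Treg minus WT Tconv (limma, 2 arrays a group); filled points are called, red higher and blue lower, and open points are not called. Of the 14 chaperones and isomerases, 11 are called right of 0 in the first panel and 11 left of 0 in the third; Dnajc3 (-0.03) lies left of 0 in the first and Dnajb9 (0.01) right of it in the third. The Chac1 points rest on signals below background in WT Treg and WT Tconv and are not measured sizes.

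Protein disulphide isomerases and small ER proteins had calls in the same directions as the chaperones. On their brightest probes all 5 were higher in Nr4a-TKO than in WT Treg and all 5 were lower in WT Treg than in WT Tconv. Over all tested genes 18.6% were higher in the first comparison and 20.9% lower in the second. For Pdia6 the second probe was not called in the second comparison. Between Nr4a-TKO and WT Tconv 0 of 5 was called, where 48.7% of all tested genes were, and 0 had an unadjusted p under 0.05 in limma. Without both replicate 1 arrays of the precursor groups, the differences of Nr4a-TKO from WT Treg ran from 0.44 (Pdia3) to 0.68 (Manf). With all arrays these were 0.46 and 0.85. Pdia3 (ERp57), the isomerase that works with Calr and Canx, was at 3.60 and 3.56 in Nr4a-TKO, 3.14 and 3.07 in Foxp3-KO, 3.06 and 3.18 in WT Treg and 3.57 and 3.66 in WT Tconv. Its arrays fell into the same 2 levels as those of Calr, with Nr4a-TKO and WT Tconv overlapping above and Foxp3-KO and WT Treg overlapping below. Pdia3 was higher in Nr4a-TKO by 0.46 ± 0.08 over WT Treg (adjusted p = 0.0103) and by 0.47 ± 0.08 over Foxp3-KO (adjusted p = 0.0101), and WT Treg minus WT Tconv was -0.50 ± 0.08 (adjusted p = 0.00762).

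Creld2, a small ER protein with isomerase activity that is strongly induced by ER stress, was at 4.56 and 4.33 in Nr4a-TKO, 4.09 and 3.91 in Foxp3-KO, 3.64 and 3.77 in WT Treg and 4.37 and 4.33 in WT Tconv. It was higher in Nr4a-TKO than in WT Treg by 0.74 ± 0.11 (adjusted p = 0.00757) and lower in WT Treg than in WT Tconv by 0.65 ± 0.11 on the log2 scale, a fall whose adjusted p was 0.0106. The Foxp3-KO arrays lay between WT Treg and the other groups, and Nr4a-TKO exceeded Foxp3-KO by 0.45 ± 0.11 (adjusted p = 0.0330).

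Manf, a secreted ER stress factor that also binds Hspa5, was at 2.70 and 2.38 in Nr4a-TKO, 2.06 and 1.76 in Foxp3-KO, 1.69 and 1.71 in WT Treg and 2.34 and 2.39 in WT Tconv. Nr4a-TKO overlapped WT Tconv and lay above both other groups, by 0.85 ± 0.15 over WT Treg (adjusted p = 0.0108) and 0.63 ± 0.15 over Foxp3-KO (adjusted p = 0.0254).

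Pdia6, which joins Ern1 and Eif2ak3 to switch them off, was at 5.81 and 5.66 in Nr4a-TKO, 5.36 and 5.28 in Foxp3-KO, 4.98 and 5.22 in WT Treg and 5.84 and 5.68 in WT Tconv. On this probe it was higher in Nr4a-TKO than in WT Treg by 0.64 ± 0.12 (adjusted p = 0.0128) and did not differ past the threshold from WT Tconv (-0.02 ± 0.12). Its second probe disagreed there and gave 0.80 ± 0.17 for Nr4a-TKO minus WT Tconv (adjusted p = 0.0138, with every probe tested on its own) and 1.07 ± 0.17 for Nr4a-TKO minus WT Treg. For WT Treg minus WT Tconv the brightest probe gave -0.66 ± 0.12 and was called. The second gave -0.27 ± 0.17 and was not (adjusted p = 0.277 in limma, with every probe tested on its own). The mean of both probes gave -0.46, also not called (adjusted p = 0.0501 in limma). Pdia4, a further isomerase, was higher in Nr4a-TKO than in WT Treg by 0.63 ± 0.14 and lower in WT Treg than in WT Tconv by the same test, at -0.59 ± 0.14.

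Of the 8 members with an ERSE match, 6 were higher in Nr4a-TKO than in WT Treg and 0 lower, and of the 22 with a window but no match 9 were higher and 1 lower. Over all tested genes 18.6% were higher there and 16.4% lower. Against Foxp3-KO, 4 of the 8 and 10 of the 22 were higher, where 17.8% of all tested genes were. Between Nr4a-TKO and WT Tconv 1 of the 8 was higher and 1 lower, beside 21.1% and 27.6% of all tested genes. Of the 4 members with a CARE match, 0 were higher and 1 lower in Nr4a-TKO than in WT Treg. Against WT Tconv 3 were higher and 1 lower. The 3 include Chac1, which entered the test only through Nr4a-TKO, so its call is no support. They also include Herpud1, whose call ended under median scaling. The members with a match are mostly chaperones, so the element and the role are not separate descriptions.

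Genes of ER-associated degradation had few calls. Of 4, 0 were called between Nr4a-TKO and WT Treg, between WT Treg and WT Tconv, and between Foxp3-KO and either wild-type group. In limma 1, 1, 0 and 0 of the 4 had an unadjusted p under 0.05 in those comparisons. Herpud1, which gathers the degradation complex and whose promoter is printed above, was at 3.52 and 3.38 in Nr4a-TKO, 3.18 and 3.05 in Foxp3-KO, 3.24 and 3.17 in WT Treg and 3.18 and 3.09 in WT Tconv. Both Nr4a-TKO arrays were above the rest, by 0.31 ± 0.09 over WT Tconv (adjusted p = 0.0355) and 0.33 ± 0.09 over Foxp3-KO (adjusted p = 0.0398). Without both replicate 1 arrays of the precursor groups these differences were 0.24 and 0.33. The first was not called under median scaling (0.25, adjusted p = 0.112 in limma). The second was not called under quantile normalization (0.28, adjusted p = 0.0666 in limma). Edem1, a lectin of the same route, fell by 0.61 ± 0.16 in Nr4a-TKO relative to WT Tconv (adjusted p = 0.0273). Sel1l and its ubiquitin ligase Syvn1, the core of the complex, were called in no comparison, and their differences ran from -0.37 to 0.34 on the log2 scale.

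The 3 sensors did not move together. Ern1, the kinase and nuclease that splices Xbp1 mRNA, was at 0.81 and 0.49 in Nr4a-TKO, -0.06 and -0.40 in Foxp3-KO, -0.62 and -0.46 in WT Treg and -0.80 on both WT Tconv arrays. Each Nr4a-TKO array was above every other array. Ern1 was higher in Nr4a-TKO by 1.45 ± 0.16 over WT Tconv (2.73-fold, adjusted p = 0.00204), by 1.19 ± 0.16 over WT Treg (2.28-fold, adjusted p = 0.00526) and by 0.88 ± 0.16 over Foxp3-KO (adjusted p = 0.0134). Without both replicate 1 arrays of the precursor groups these differences were 1.29, 1.03 and 0.89.

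Atf6, the sensor that is cut in the Golgi to become a transcription factor, was at -1.37 and -1.35 in Nr4a-TKO, -2.08 and -2.05 in Foxp3-KO, -1.83 and -2.33 in WT Treg and -1.85 and -2.17 in WT Tconv. It was higher in Nr4a-TKO by 0.65 to 0.72 on the log2 scale over each other group, with adjusted p of 0.0336 against WT Tconv, 0.0329 against WT Treg and 0.0366 against Foxp3-KO. The other 3 groups overlapped. Without both replicate 1 arrays of the precursor groups the differences kept their size, at 0.66, 0.73 and 0.70. Under median scaling the difference from WT Tconv was 0.59 and not called (adjusted p = 0.0532 in limma).

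Eif2ak3, the kinase that phosphorylates eIF2 alpha and slows translation, went the other way. It was at 1.02 and 0.79 in Nr4a-TKO, 0.99 and 1.40 in Foxp3-KO, 0.80 and 0.82 in WT Treg and 2.003 on both WT Tconv arrays. WT Tconv lay above all 6 other arrays, and Eif2ak3 fell by 1.0997 ± 0.15 in Nr4a-TKO (adjusted p = 0.00381), by 0.81 ± 0.15 in Foxp3-KO (adjusted p = 0.0194) and by 1.19 ± 0.15 in WT Treg (2.29-fold lower, adjusted p = 0.0042), each relative to WT Tconv. The comparison of Nr4a-TKO with WT Tconv, within slide row 1, gave a size between those of the other comparisons, which cross rows.

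**Figure D5:**
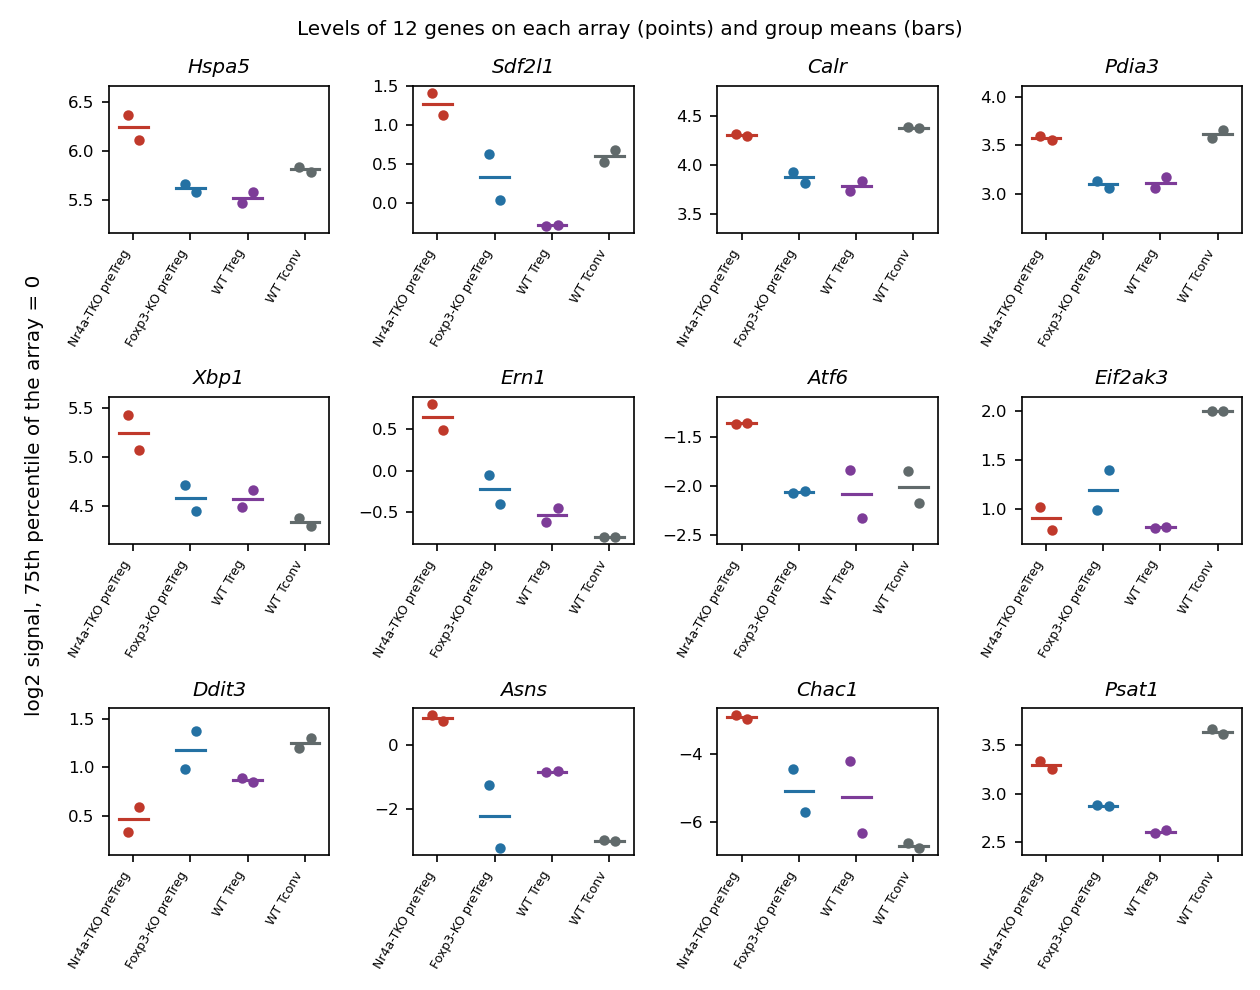
Level of 12 members on each array (points) and group means (bars), as log2 signal with the 75th percentile of the array at 0; axes differ between genes. Ern1, Xbp1, Hspa5 and Sdf2l1 are highest on both Nr4a-TKO arrays, Eif2ak3 and Psat1 are highest in WT Tconv, and the Chac1 points outside Nr4a-TKO are below background.

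Among the transcription factors, Xbp1 followed Ern1. Xbp1 was at 5.43 and 5.07 in Nr4a-TKO, 4.72 and 4.44 in Foxp3-KO, 4.49 and 4.66 in WT Treg and 4.37 and 4.29 in WT Tconv. It was higher in Nr4a-TKO by 0.92 ± 0.16 over WT Tconv (1.89-fold, adjusted p = 0.00747), 0.68 ± 0.16 over WT Treg (adjusted p = 0.0259) and 0.67 ± 0.16 over Foxp3-KO (adjusted p = 0.0278). In both precursor groups replicate 1 was above replicate 2 for Xbp1, Hspa5, Sdf2l1, Ern1 and the plasma cell marker sum, and below it for Ddit3. With 2 arrays a group the part of other cells in this order was not tested. Without both replicate 1 arrays of the precursor groups the differences were 0.73, 0.49 and 0.62. The probe does not tell spliced from unspliced Xbp1 mRNA.

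Atf4, the factor made when eIF2 alpha is phosphorylated and regulated mostly at translation, was at 6.47 and 6.28 in Nr4a-TKO, 6.06 and 6.08 in Foxp3-KO, 6.07 and 5.98 in WT Treg and 6.13 and 6.10 in WT Tconv. It was higher in Nr4a-TKO than in WT Treg by 0.35 ± 0.09 (adjusted p = 0.0310) and than in Foxp3-KO by 0.31 ± 0.09 (adjusted p = 0.0471). The second Atf4 probe gave -0.01 ± 0.08 and 0.08 ± 0.08, and with the mean of both probes neither difference was called (0.17 and 0.19, adjusted p = 0.127 and 0.100 in limma).

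Ddit3 (CHOP), a target of Atf4 that promotes cell death under lasting stress, ran against Atf4. It was at 0.34 and 0.60 in Nr4a-TKO, 0.98 and 1.38 in Foxp3-KO, 0.89 and 0.86 in WT Treg and 1.19 and 1.30 in WT Tconv, so that both Nr4a-TKO arrays were the lowest of the 8. Ddit3 fell by 0.78 ± 0.16 in Nr4a-TKO relative to WT Tconv (1.71-fold lower, adjusted p = 0.0116) and by 0.71 ± 0.16 relative to Foxp3-KO (adjusted p = 0.0221). It was the 1 member lower in Nr4a-TKO than in Foxp3-KO.

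Feedback and stress targets of the ATF4 branch were mixed. Trib3, a pseudokinase induced by ATF4 and CHOP that restrains both, was at -0.18 and -0.77 in Nr4a-TKO, -0.23 and 0.01 in Foxp3-KO, 0.22 and 0.54 in WT Treg and 0.53 and 0.32 in WT Tconv. The Nr4a-TKO arrays were apart from both wild-type groups but overlapped Foxp3-KO. Trib3 fell by 0.90 ± 0.23 in Nr4a-TKO relative to WT Tconv (adjusted p = 0.0236) and by 0.85 ± 0.23 relative to WT Treg (adjusted p = 0.0368), the 1 member lower there. That call ended under median scaling and with only the groups compared, and it was kept in 3 of 8 fits that left out 1 array. Ppp1r15a (GADD34), which directs the phosphatase that removes the eIF2 alpha phosphate, fell by 0.28 ± 0.07 in Nr4a-TKO and by 0.32 ± 0.07 in Foxp3-KO, both relative to WT Tconv. Sesn2, a stress-induced inhibitor of mTORC1, was called only in WT Treg against WT Tconv, where it was higher by 0.43 ± 0.11 (adjusted p = 0.0302). With median scaling the Sesn2 difference was 0.28 and with normexp 0.26, and neither was called (adjusted p = 0.0578 and 0.0560 in limma).

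Chac1, which breaks down glutathione and is a sensitive ATF4 target, was at -2.86 and -2.98 on the Nr4a-TKO arrays, both well above background. It was not well above background on the Foxp3-KO arrays (-4.45 and -5.73), the WT Treg arrays (-4.22 and -6.33) or the WT Tconv arrays (-6.63 and -6.76), where the values have no order. Against the background level, Chac1 was at least 3.05-fold higher in Nr4a-TKO than in WT Tconv. It entered the test only through Nr4a-TKO, the group where it was high, so no p-value is given. It is among the 9 members counted as higher in that comparison. The bound was at least 2.31-fold over WT Treg and at least 2.20-fold over Foxp3-KO, comparisons in which Chac1 was not called.

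Among the enzymes of amino acid and one-carbon synthesis, Asns had the largest measured difference of all 33 members. Asns, which makes asparagine and is a classic ATF4 target, was at 0.95 and 0.74 in Nr4a-TKO, -1.25 and -3.22 in Foxp3-KO, -0.84 and -0.83 in WT Treg and -2.96 and -3.02 in WT Tconv. The Nr4a-TKO arrays were far above the rest, WT Treg lay between, and the Foxp3-KO replicates spanned almost the whole range from WT Treg to WT Tconv. Asns was higher in Nr4a-TKO than in WT Tconv by 3.83 ± 0.59 (14.3-fold, adjusted p = 0.00527) and than in Foxp3-KO by 3.08 ± 0.59 (adjusted p = 0.0155), and higher in WT Treg than in WT Tconv by 2.16 ± 0.59 (4.45-fold, adjusted p = 0.0395). Nr4a-TKO minus WT Treg was 1.68 ± 0.59 and missed the threshold (adjusted p = 0.0765). The SE is that of all 4 groups and is set mostly by Foxp3-KO. Without both replicate 1 arrays of the precursor groups the difference from WT Treg was 1.58.

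The serine pathway moved apart from Asns. Psat1, the aminotransferase of serine synthesis, was at 3.34 and 3.26 in Nr4a-TKO, 2.88 and 2.87 in Foxp3-KO, 2.59 and 2.63 in WT Treg and 3.66 and 3.61 in WT Tconv. No groups overlapped, and the order was WT Tconv, Nr4a-TKO, Foxp3-KO and WT Treg from high to low. Psat1 fell by 1.02 ± 0.07 in WT Treg (2.03-fold lower, adjusted p = 0.00061), by 0.76 ± 0.07 in Foxp3-KO (adjusted p = 0.00292) and by 0.34 ± 0.07 in Nr4a-TKO (adjusted p = 0.0118), each relative to WT Tconv. Nr4a-TKO exceeded WT Treg by 0.69 ± 0.07 (adjusted p = 0.00211). On the second Psat1 probe the differences from WT Tconv were -1.08, -0.89 and -0.68 in the same order of groups, and that between Nr4a-TKO and WT Treg was 0.40 and not called. Phgdh, the first enzyme of the pathway, was lower than in WT Tconv in all 3 groups, by 0.32 to 0.40 on the log2 scale.

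Mthfd2, a mitochondrial folate enzyme of dividing cells, was at 1.15 and 1.07 in Nr4a-TKO, 0.82 and 0.49 in Foxp3-KO, 0.68 and 0.57 in WT Treg and 0.68 and 0.63 in WT Tconv. Both Nr4a-TKO arrays were above the other 6, by 0.46 ± 0.12 over WT Tconv (adjusted p = 0.0272), 0.49 ± 0.12 over WT Treg (adjusted p = 0.0301) and 0.45 ± 0.12 over Foxp3-KO (adjusted p = 0.0383). Shmt2, which feeds it from serine, was at 2.08 and 2.12 in Nr4a-TKO, 1.70 and 1.68 in Foxp3-KO, 2.04 and 2.10 in WT Treg and 1.98 and 2.06 in WT Tconv. Foxp3-KO stood below the other 3 groups, by 0.38 ± 0.07 under WT Treg, the 1 member called in that comparison within slide row 2 (log2 difference -0.38, adjusted p = 0.0391). The call ended under median scaling, with no filter on dim probes and with only the groups compared, and it was kept in 0 of 8 fits that left out 1 array (highest adjusted p 0.206 in limma over all alternatives).

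Set side by side, 6 members were higher in Nr4a-TKO than in each of the other groups: Atf6, Ern1, Hspa5, Mthfd2, Sdf2l1 and Xbp1. Of these, Atf6, Hspa5 and Sdf2l1 were not called against WT Tconv under median scaling. Members lower than in WT Tconv in all 3 of the other groups were Dnajc3, Eif2ak3, Hyou1, Phgdh and Psat1. With only the groups compared, the Foxp3-KO calls of Dnajc3, Eif2ak3, Hyou1 and Phgdh ended. That of Dnajc3 also ended under quantile normalization and was kept in 1 of 8 fits that left out 1 array. The share of all tested genes with either pattern was not counted, so neither list is set against a background. With 4 residual degrees of freedom, the calls often needed all 8 arrays. Those that stood under every processing alternative tried and with any array left out were Asns, Eif2ak3, Ern1 and Xbp1 for Nr4a-TKO against WT Tconv, Calr, Creld2, Ern1, Hspa5, Psat1 and Sdf2l1 for Nr4a-TKO against WT Treg, Calr, Eif2ak3, Hyou1 and Psat1 for WT Treg against WT Tconv and Psat1 for Foxp3-KO against WT Tconv. For Nr4a-TKO against Foxp3-KO and for Foxp3-KO against WT Treg there were 0 such members. No calls are counted without both replicate 1 arrays of the precursor groups, since that left 1 array in each of these groups.

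Other genes of the same processes, from lists that overlap none of the members, were read from the same fit. Of 23 tested genes of ER folding and glycosylation, 8 were higher and 2 lower in Nr4a-TKO than in WT Treg, and 0 were higher and 12 lower in WT Treg than in WT Tconv, with medians of 0.28 and -0.29. Between Nr4a-TKO and WT Tconv, within slide row 1, 1 was higher and 7 lower. Over all tested genes 18.6% were higher and 16.4% lower in the first of these comparisons, 13.8% and 20.9% in the second and 21.1% and 27.6% in the third, and list counts below are to be read against those shares. P4hb, the most abundant disulphide isomerase of many cells, was higher in Nr4a-TKO than in WT Treg by 0.47 ± 0.07, and Rpn1, a subunit of the oligosaccharyltransferase, was lower in WT Treg than in WT Tconv, at -0.70 ± 0.08. Stt3b, a catalytic subunit of the same enzyme, ran the other way and was lower in Nr4a-TKO than in every other group, at -0.73 ± 0.10 against WT Treg and -0.97 ± 0.10 against WT Tconv. Of 20 genes of transport into the ER, 9 were higher and 2 lower in Nr4a-TKO than in WT Treg, and 0 were higher and 6 lower in WT Treg than in WT Tconv. Of 18 genes of ER-associated degradation, 4 were higher and 0 lower in Nr4a-TKO than in WT Treg, a higher share near that of all genes. Derl3, a retrotranslocation protein typical of secretory cells, was higher in Nr4a-TKO than in WT Tconv by 2.18 ± 0.45 (adjusted p = 0.0124).

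In a mixed list of 15 further genes, 5 were higher and 2 lower in Nr4a-TKO than in WT Treg, and 2 were higher and 5 lower than in WT Tconv. The list holds sensors and eIF2 kinases, but also Eif2s1, Ppp1r15b and the proteases Mbtps1 and Mbtps2. It also holds the cell death genes Bbc3, Bcl2l11, Bak1 and Bax, so the counts do not describe sensors alone. Creb3l2, a membrane-bound transcription factor of the Atf6 type, was higher in Nr4a-TKO by 3.03 ± 0.20 over WT Tconv, 1.97 ± 0.20 over WT Treg and 2.35 ± 0.20 over Foxp3-KO. Wfs1, an ER membrane protein that restrains Atf6, was lower than in WT Tconv in Nr4a-TKO (-1.77 ± 0.13), Foxp3-KO (-1.68 ± 0.13) and WT Treg (-2.23 ± 0.13). Of 34 further ATF4 targets and genes of amino acid supply, 12 were higher and 3 lower in Nr4a-TKO than in WT Treg, 11 were higher and 2 lower than in WT Tconv, and 5 were higher and 3 lower in WT Treg than in WT Tconv. Atf3, a stress factor downstream of Atf4, was at least 19.4-fold higher in Nr4a-TKO than in WT Tconv, where it was not above background. It was at -0.23 and -0.26 in Nr4a-TKO and at -3.54 and -4.29 in WT Treg, where 1 of 2 arrays was above background. Atf3, 1 of the 34 genes, entered the test only through Nr4a-TKO, the group where it was high, so no fitted difference is given. Gpt2, a mitochondrial alanine aminotransferase, was higher in Nr4a-TKO by 2.70 ± 0.19 over WT Tconv and 1.61 ± 0.19 over WT Treg. Handling stress genes moved with these, with 6 of 10 higher and 0 lower in Nr4a-TKO than in WT Treg, and their part was not tested.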

How the data were processed

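RNA of 8 samples, 4 groups of 2 biological replicates, was measured on one-colour Agilent arrays. Per the file headers, the software was Agilent Feature Extraction 10.7.1.1, and its processed signal used here is a linear intensity that the scanner software had background-subtracted and spatially detrended, with no scaling between arrays. Per the file headers, other deposited columns are quality flags, in particular whether a spot is well above background. A matrix deposited by the authors, whose intensity is the processed signal times 1 constant per array, served as an alternative. The array design was annotated on mm9, so no coordinates were taken from it; promoter coordinates are those of the RefSeq table.

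Each array held 62976 spots, 3671 of them controls, and 0 were saturated. Control and flagged spots were left out, the log2 intensity was set to the 75th percentile of the array, spots of a probe were averaged, and probes were named through RefSeq accessions (28026 of 55681 probes had a symbol). One limma 3.58.1 model (R 4.3.3) held the means of all 4 groups (lmFit, eBayes without trend, 4 residual and 1.6 prior degrees of freedom) with Benjamini-Hochberg adjustment over genes. A fold against a group below background is a lower bound: the mean of the brighter group against, per array, the higher of the dim probe's signal and the lowest signal among probes well above background. The procedure was checked on simulated data. Values on every array are given for the sensors, the transcription factors, Hspa5, the up to 5 called members with the largest difference in each comparison and every member called between Nr4a-TKO and Foxp3-KO. Of each other list, up to 3 genes with the smallest adjusted p per comparison could be named. The members and the lists were chosen with earlier results of these data known. Alternatives were quantile normalization, median scaling, normexp with an offset of 50, the deposited matrix, 2 other filters on dim probes, the mean of a gene's probes, an intensity trend, a fit of the compared groups alone, a block on replicate number, and leaving out each array. The number of arrays limits the precision. Figures were drawn with matplotlib 3.10.9.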

Additional observations from a re-analysis of the deposited data

How the results depend on the processing

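Of 198 member differences, 80 were called, and 0 reversed under any alternative. Counts of members called moved by over 1.5 times as follows. For Foxp3-KO against WT Tconv (10 called) the count was 5 with no filter on dim probes and 1 with only the groups compared. For Foxp3-KO against WT Treg (1 called) it was 2 with quantile normalization, 0 with median scaling and 0 with no filter. It was 2 with only genes above background on all arrays, 4 with an intensity trend, 0 with only the groups compared and 0 with the replicate number as a block. For Nr4a-TKO against Foxp3-KO (17 called) it was 1 with only the groups compared, which leaves fewer arrays. The remaining totals under other alternatives were within 1.5 times, but of the members called for Nr4a-TKO against WT Tconv 5 were higher, in place of 9, under median scaling and with no filter. With 1 array left out, the counts ran from 4 to 19 for Nr4a-TKO against WT Tconv, 1 to 11 for Foxp3-KO against WT Tconv, 5 to 18 for WT Treg against WT Tconv, 8 to 20 for Nr4a-TKO against WT Treg, 0 to 3 for Foxp3-KO against WT Treg and 3 to 16 for Nr4a-TKO against Foxp3-KO. The lowest counts came without WT Tconv replicate 1 (4), WT Tconv replicate 1 or 2 (1), WT Tconv replicate 1 or 2 or WT Treg replicate 1 (5), Nr4a-TKO replicate 1 or WT Treg replicate 1 (8), any of the 6 arrays outside Foxp3-KO (0) and Nr4a-TKO replicate 1 (3), in the same order of comparisons.

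The labels do not say whether replicate numbers pair samples, and the pairs of groups did not all pass 0.1: deviations of same-numbered arrays correlated at 0.258, 0.194 and 0.148 among Nr4a-TKO, Foxp3-KO and WT Treg and at -0.01 to -0.03 with WT Tconv, and the block moved the count of member calls by over 1.5 times only for Foxp3-KO against WT Treg. It ended the calls of Shmt2 there and of Trib3 for Nr4a-TKO against WT Treg, among others. Calls over all genes for Foxp3-KO against WT Tconv (3389) were 2167 with no filter and 1281 with only the groups compared. For Foxp3-KO against WT Treg (870) they were 399 and 0. For Nr4a-TKO against Foxp3-KO (4514) they were 7401 and 888. Median scaling moved the median of all genes to -0.25 for Foxp3-KO and -0.23 for WT Treg, each minus WT Tconv, and the higher share of calls to 22.5% and 25.8%, against 41.0% and 39.8%; it was 67.1% and 66.7% for Nr4a-TKO against WT Treg and against Foxp3-KO, in place of 53.0% and 53.2%. The number of arrays, 2 a group, limits all of these.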

Other observations

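Of 34 tested cytosolic and mitochondrial chaperones, 6 were higher and 2 lower in Nr4a-TKO than in WT Treg, 2 were higher and 6 lower in WT Treg than in WT Tconv, and 5 were higher and 4 lower in Nr4a-TKO than in WT Tconv. Over all tested genes the shares higher and lower were 18.6% and 16.4%, 13.8% and 20.9%, and 21.1% and 27.6% in these comparisons, so the counts did not exceed those shares. Bag3, a co-chaperone of Hsp70 in the disposal of aggregates, was higher in Nr4a-TKO by 2.66 ± 0.35 over WT Tconv and 2.53 ± 0.35 over Foxp3-KO, and higher in WT Treg than in WT Tconv by 1.52 ± 0.35. Hspa1a, the stress-inducible Hsp70, was at least 18.8-fold higher in Nr4a-TKO than in WT Tconv, where it was not above background. The Nr4a-TKO arrays differed widely, at 1.13 and -1.72, and replicate 2 alone gave at least 7.01-fold. Hsf2, a heat shock transcription factor, was lower in Nr4a-TKO than in WT Treg by 0.90 on the log2 scale (log2 difference -0.90 ± 0.15) and than in Foxp3-KO (-0.68 ± 0.15). Fkbp5, a co-chaperone of Hsp90 and the glucocorticoid receptor, was lower than in WT Tconv in WT Treg (-1.07 ± 0.23) and Foxp3-KO (-0.96 ± 0.23) and higher in Nr4a-TKO than in WT Treg by 1.03 ± 0.23. Hspa1a is also among the handling stress genes.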
